A study of Mus musculus with 10 samples.

Results

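Immediate early genes (IEGs) are the first genes that a neuron transcribes after a burst of activity, and 10 of them, named as a family of interest, were followed through every library of a mouse brain study: Fos, Fosb, Fosl2, Junb, Egr1, Egr2, Arc, Npas4, Nr4a1 and Ier2. The members were taken by name, as known genes of this class and with earlier results of these data known. All 10 were found among the 55536 mouse genes of the deposited count tables. The study sequenced RNA of 5 mice aged 1 year, taking cerebellum and cortex of each, and its 10 libraries held 16088310 to 22975355 gene counts. KO mice (KO 1 and KO 2, 2 animals) were homozygous throughout the body for a 1-base frameshift deletion in Snx14 on a C57BL/6J background, and the gene encodes a sorting nexin of the endoplasmic reticulum. The 3 control mice comprised 2 Het animals, controls 1 and 2, and a single WT animal, control 3. Both tissues came from the same 5 animals according to the animal numbers in the labels, so that the same mouse could be read in each region. The WT genotype was represented by 1 mouse, whose animal number (474) also lay outside the range of the other 4 mice (171 to 177), and genotype, origin and individual cannot be told apart for that animal. Snx14 itself was at 39.9 to 42.8 CPM (counts scaled to library depth with TMM factors over all libraries) in Het cerebellum, 73.2 CPM in WT cerebellum and 15.5 to 17.4 CPM in KO cerebellum. In cortex it was at 34.3 to 34.9, 50.8 and 14.8 to 16.1 CPM, so each library followed its label.

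IEGs need no new protein for their induction. Calcium entry and growth factor signals activate kinases that phosphorylate CREB and the serum response factor (SRF) complex already bound at their promoters, and transcription starts within minutes and fades quickly because the transcripts are unstable. In the brain they are used as markers of recent neuronal activity, of sensory experience and of handling, and most of them encode transcription factors that drive later genes, whereas Arc acts at the synapse. The time of day, the handling of the animals before death and the order of dissection are not given in the sources used here, and their part in the levels below was not tested. Tissue labels were met by the markers: by the fitted log2 fold change all 10 cerebellar granule cell genes were lower in control cortex. All 9 cortical excitatory neuron genes were higher there, where 48.8% of all tested genes were higher.

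The regulatory stretch in front of several members is shown because cAMP response elements (CRE) and CArG boxes, the letters recognised by CREB and SRF, are the textbook elements of this class. The part of these elements in the levels of the members was not tested. Promoter windows from RefSeq (build GRCm38.p6, 250 bases before the start) were matched by symbol for 7 of the 10 members, with no entry for Egr1, Arc and Ier2. The 130 bases before a start follow for 5 genes, 5′ to 3′, with TGACG or its reverse complement CGTCA (the CRE half-site) and CArG boxes in capitals.
Fos, chr12:85473760-85473889, plus strand: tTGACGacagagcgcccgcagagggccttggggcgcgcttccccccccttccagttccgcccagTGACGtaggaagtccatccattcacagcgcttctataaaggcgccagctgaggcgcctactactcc
Fosb, chr7:19310046-19310175, minus strand: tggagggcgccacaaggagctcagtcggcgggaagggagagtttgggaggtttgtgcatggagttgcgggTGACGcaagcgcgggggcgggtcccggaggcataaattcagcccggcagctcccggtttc
Junb, chr8:84978749-84978878, minus strand: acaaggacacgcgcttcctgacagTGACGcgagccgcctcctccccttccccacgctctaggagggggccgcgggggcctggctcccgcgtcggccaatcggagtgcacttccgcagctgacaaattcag
Egr2, chr10:67537739-67537868, plus strand: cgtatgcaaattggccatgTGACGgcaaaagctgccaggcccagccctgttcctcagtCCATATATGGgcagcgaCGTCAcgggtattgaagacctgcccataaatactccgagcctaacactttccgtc
Nr4a1, chr15:101266716-101266845, plus strand: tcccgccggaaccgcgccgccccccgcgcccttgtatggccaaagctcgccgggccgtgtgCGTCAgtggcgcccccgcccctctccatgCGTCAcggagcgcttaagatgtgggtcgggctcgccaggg
Egr2 has 5 annotated starts, and 2 of them, 1 base apart, held the most matches in the 130 bases before the start, of which the first is shown. A CRE half-site was present in 6 of the 7 members with a window (Fos, Fosb, Junb, Egr2, Npas4 and Nr4a1, not Fosl2), and in 19.8% of all 27025 genes in the promoter table. The complete palindrome TGACGTCA was found in 0 of the 7 and in 1.77% of all genes. A CArG box was found in 1 of the 7, Egr2, against 1.62% of all genes. TGAGTCA, an AP-1 site, was found in 0 of the 7 members and 5.16% of genes. In Fos the half-site nearest the start began at position -66 (the base before the start being -1), in Fosb at -60 and in Junb at -106. Nr4a1 held 4 half-sites, at -233, -213, -69 and -40. Both strands were searched, each half-site may lie within a longer element, and a match is a match of letters only. Elements farther than 250 bases before a start were not searched, so a missing match holds for these windows only.

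Levels of the members in control mice were compared per exonic length (RPKM) to order them within a region. In cortex the order of the mean levels was Arc (61.7 ± 37.5 RPKM, SD, n = 3), Egr1 (53.3 ± 12.5), Junb (38.9 ± 19.5), Nr4a1 (27.7 ± 15.0), Fos (13.7 ± 8.43), Ier2 (6.56 ± 3.09), Npas4 (5.86 ± 1.19), Fosl2 (3.45 ± 0.389), Fosb (3.01 ± 0.632) and Egr2 (2.89 ± 2.26). Each gene's range over the 3 control mice overlapped that of the next gene in the order except between Npas4 and Fosl2. In cerebellum the order was Fos (14.2 ± 12.01, SD, n = 3), Junb (12.2 ± 3.24), Egr1 (11.9 ± 4.31), Ier2 (10.3 ± 3.12), Nr4a1 (8.41 ± 5.93), Arc (4.18 ± 0.761), Npas4 (0.720 ± 0.394), Fosl2 (0.663 ± 0.179), Fosb (0.536 ± 0.373) and Egr2 (0.0241 ± 0.0226). There the neighbours did not overlap between Arc and Npas4 and between Fosb and Egr2. Arc, the highest member of cortex, was thus the sixth of cerebellum, and Fos, the highest of cerebellum, was the fifth of cortex.

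**Figure D1:**
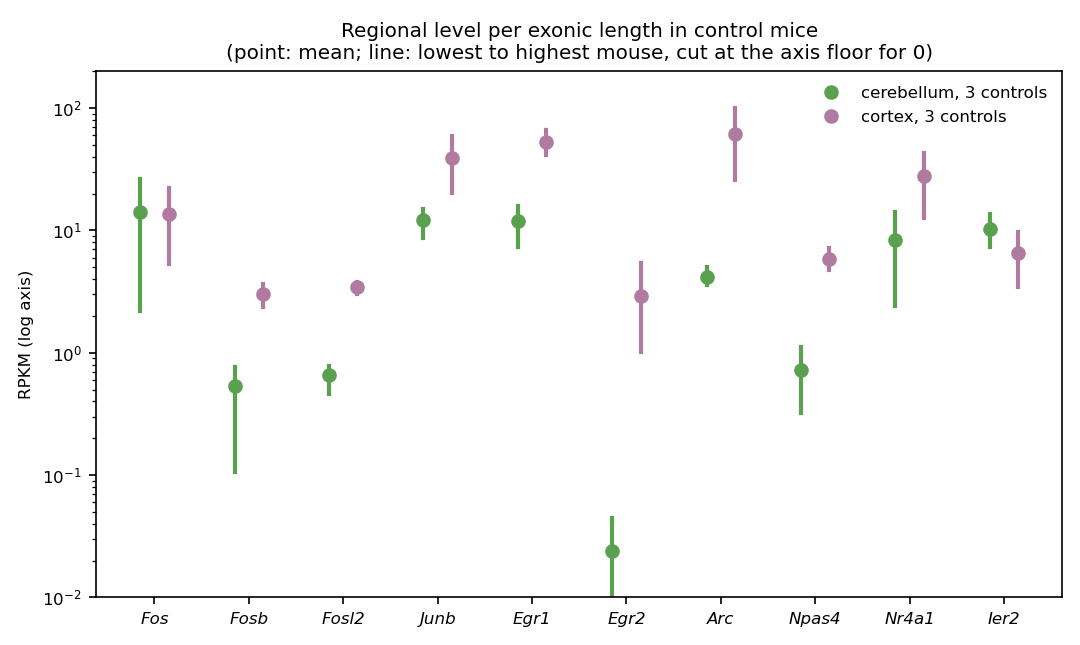
Level of each member per exonic length (RPKM, log axis) in the 3 control mice, with the mean as a point and a line from the lowest to the highest mouse. Cortex lies above cerebellum for 8 genes, most for Egr2 and Arc, and the ranges of the 2 tissues overlap for Fos, Ier2 and Nr4a1.

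To define the regional baseline, cortex was compared with cerebellum in the control mice. A gene was called at an adjusted p under 0.05 (edgeR quasi-likelihood test, Benjamini-Hochberg over all genes tested) and an absolute log2 fold change over 0.5. Of the 10 members 8 were called, all of them higher in cortex, against 40.5% of the 19416 genes tested in either direction and 21.5% with cortex higher. All 3 cortices lay above all 3 cerebella for 7 members, against 30.3% of all genes. The remaining 2 members, Fos and Ier2, were not called. With the mouse as a block, 9 members were called, the additional one being Ier2.

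Egr2, a zinc finger factor of the EGR family, showed the widest regional contrast. It reached 7.73, 18.3 and 3.44 CPM in the cortex of controls 1 to 3 (chromosome 10, 67535475 to 67542188, plus strand, in GRCm38 and GENCODE M21), but the cerebellum libraries held 2, 0 and 3 counts of it. Every cortex was above every cerebellum. The summed counts, 547 against 5, gave a ratio of 130 after scaling, with an exact 95% interval of 55.4 to 402 that covers counting error only. Egr2 was also nearly absent from KO cerebellum (0 and 6 counts), and it did not enter the KO test in that tissue.

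Arc, the synaptic effector that promotes the removal of AMPA receptors, was the member with the next largest contrast (chromosome 15, 74669083 to 74672570, minus strand). It was at 179, 307 and 79.0 CPM in the cortex of controls 1 to 3 and at 10.9, 15.4 and 12.1 CPM in their cerebella. Its lowest cortex was far above its highest cerebellum, and the log2 fold change was 3.89 (SE 0.450, edgeR adjusted p 0.000119). Within each mouse cortex exceeded cerebellum by 16.4-, 20.0- and 6.56-fold in the controls and by 15.3- and 21.2-fold in the KO mice. Npas4, a basic helix-loop-helix factor induced selectively by calcium in neurons (chromosome 19, 4984355 to 4990316, minus strand), was at 19.8, 29.6 and 23.3 CPM in control cortex and at 3.03, 4.58 and 1.32 CPM in control cerebellum. Again the regions did not overlap, with a log2 fold change of 3.02 (SE 0.347, edgeR adjusted p 0.000115).

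Among the AP-1 genes, whose FOS and JUN proteins pair to bind DNA, Fosb (chromosome 7, 19302696 to 19310051, minus strand) was higher in cortex by 2.48 on the log2 scale (SE 0.493, edgeR adjusted p 0.00273). It was at 18.9, 22.7 and 14.9 CPM in control cortex and at 4.81, 4.58 and 0.661 CPM in control cerebellum, the last of these resting on 13 counts. Fosl2 (chromosome 5, 32135801 to 32157842, plus strand), which encodes the FOS relative FRA2, was at 36.5, 29.2 and 34.6 CPM in cortex and at 7.61, 7.21 and 4.42 CPM in cerebellum. It varied little between controls in cortex, and its log2 fold change was 2.38 (SE 0.194, edgeR adjusted p 1.4e-05). Junb (chromosome 8, 84974484 to 84978718, minus strand), a JUN partner, was at 86.1, 136 and 46.6 CPM in cortex and at 29.4, 34.8 and 20.0 CPM in cerebellum. Its log2 fold change was 1.68 (SE 0.354, edgeR adjusted p 0.00373). Of its exonic bases 7.52% overlap Prdx2 on the other strand, and the counting used no strand and credited shared pairs to both genes, whereas no exonic base of the other 9 members overlaps another gene.

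Egr1, the zinc finger factor also known as Zif268, was at 232, 298 and 187 CPM in control cortex and at 71.2, 55.9 and 32.8 CPM in control cerebellum. The regions did not overlap, and the log2 fold change was 2.17 (SE 0.271, edgeR adjusted p 0.000188). Nr4a1, an orphan nuclear receptor (chromosome 15, 101254269 to 101274795, plus strand), was at 96.7, 150 and 44.6 CPM in cortex and at 30.01, 50.1 and 8.49 CPM in cerebellum. Here the cortex of control 3 lay below the cerebellum of control 2, although cortex was the higher tissue in each mouse. The log2 fold change was 1.72 (SE 0.582, edgeR adjusted p 0.0340). The call was lost without cerebellum control 1 (adjusted p 0.0895), cerebellum control 3 (0.0591), cortex control 1 (0.0719) or cortex control 2 (0.0502), and with DESeq2 (0.0578). None of these fits paired the tissues of a mouse. With the mouse as a block Nr4a1 was called, with a log2 fold change of 1.84 (SE 0.131, edgeR adjusted p 1.15e-06).

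Fos (chromosome 12, 85473890 to 85477273, plus strand), the founding AP-1 member, stood apart from its relatives in having no regional contrast of a fixed direction. It was at 32.0, 52.1 and 12.4 CPM in control cortex and at 33.1, 61.6 and 5.13 CPM in control cerebellum. The ratio of cortex to cerebellum was 0.965 and 0.845 in the Het mice and 2.41 in the WT mouse, and the fitted log2 fold change was -0.04 (SE 0.726, edgeR adjusted p 0.966). Its sign turned without cerebellum control 2 (0.75), without cortex control 3 (0.35) and with the mouse as a block (0.17). Ier2, a small nuclear protein of the immediate early response (chromosome 8, 84661331 to 84662852, minus strand), ran in the other direction. It was at 10, 14.7 and 5.28 CPM in cortex and at 15.5, 20.6 and 11.1 CPM in cerebellum, and cortex was lower in 5 of 5 mice, with ratios of 0.476 to 0.859. The groups overlapped and the log2 fold change of -0.64 (SE 0.343) was not called (edgeR adjusted p 0.147), but it was called with the mouse as a block (-0.69, adjusted p 0.00169) and without cortex control 2 (-1.01, adjusted p 0.0129).

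Other genes of the pathway were read from 4 lists. Of 15 activity-regulated effector genes 13 were called higher and 1 lower in control cortex (median log2 fold change 1.35, against -0.02 over all genes tested). Among 18 other immediate early transcription factor genes 9 were higher and 2 lower (median 0.48), among 20 rapidly induced feedback genes 6 were higher and 3 lower (median 0.32), and among 26 upstream regulators 13 were higher and 5 lower (median 0.47). Over all genes tested 40.5% were called in either direction and 21.5% with cortex higher, and the feedback list lay near these shares. The smallest p-values belonged to Egr3 (log2 fold change 8.44, SE 0.188), a relative of Egr1, the kinase gene Plk2 (2.94, SE 0.105), the secreted neuropeptide precursor gene Vgf (4.22, SE 0.154), the pentraxin gene Nptx2 (6.34, SE 0.267) and the transcription factor gene Mef2c (3.65, SE 0.160), with edgeR adjusted p-values from 1.69e-08 to 3.55e-07. In bulk tissue fewer cells that express a gene and less RNA of it per cell cannot be told apart.

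**Figure D2:**
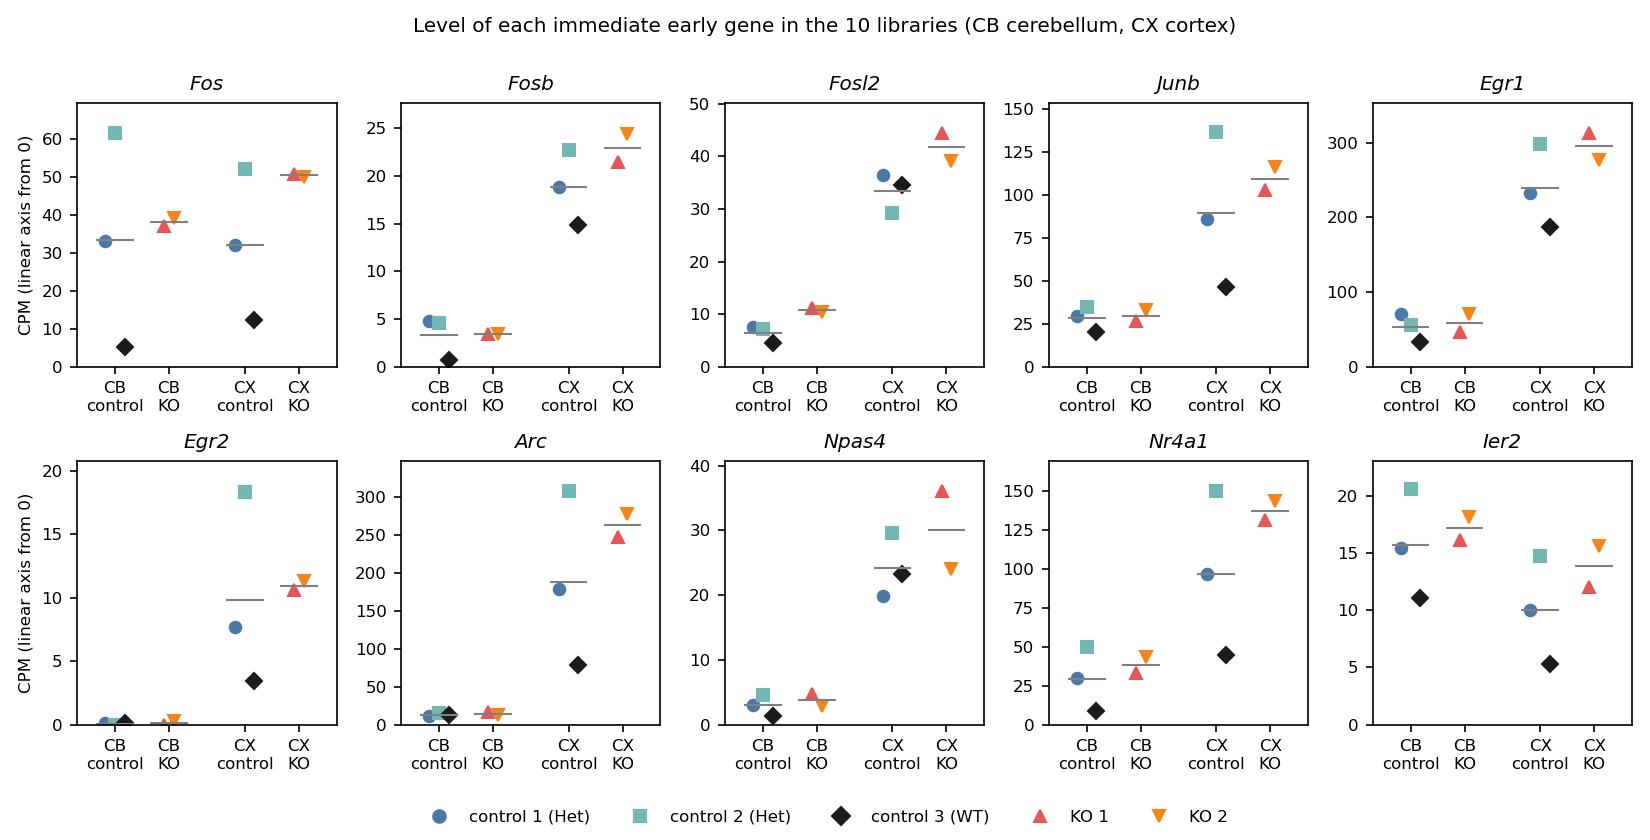
CPM of each member (linear axis from 0) in the 10 libraries, by tissue (CB cerebellum, CX cortex) and group, with a symbol per mouse and a grey line at the group mean. The WT mouse, control 3 (black diamonds), is the lowest control for most genes in both tissues, and both KO mice lie above every control for 1 of 9 members tested in cerebellum and 1 of 10 in cortex, Fosl2 in each case, where 15.4% and 10.5% of all genes did so.

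Before the genotypes are compared, the spread among the controls needs description, since it was wide for these genes. The SD of log2 CPM over the 3 controls had a median of 0.570 over the 9 members tested in cerebellum and of 0.756 over the 10 tested in cortex, whereas the median over all tested genes was 0.131 and 0.185. In cerebellum Fos had an SD of 1.85, above that of 99.9% of tested genes, Fosb one of 1.53 and Nr4a1 one of 1.31. Arc had the smallest, 0.253, which was still above 75.5% of genes. In cortex the largest were those of Egr2 (1.19), Fos (1.05), Arc (0.986) and Nr4a1 (0.885). Fosl2 had the smallest there, 0.167, which was above only 45.2% of genes.

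The mouse with the lowest level was the same in both tissues for most members, each time control 3. Each gene's log2 CPM was taken relative to its mean over the 5 mice of a tissue, for the 9 members tested in both tissues. Control 3 had the lowest level in cerebellum and in cortex for 6 of the 9 (Fos, Fosb, Junb, Egr1, Nr4a1 and Ier2), against 3.72% of 18111 genes tested in both. The lowest mouse was the same in the 2 tissues for these 6 and for no other member, and it was the same for 28.2% of all genes. For the remaining 3, control 3 was lowest in 1 tissue only, in cerebellum for Fosl2 and Npas4 and in cortex for Arc. Control 3 was below both KO mice in both tissues for 9 of 9 members, against 13.3% of all genes. Control 3 was singled out from these same values, and each member is read in the same 1 mouse. The counts for control 3, here and for the lists below, are therefore a description and not a test.

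Fos illustrates the range: in cerebellum it was 12.01-fold lower in control 3 than in control 2, and in cortex 4.20-fold. Nr4a1 spanned 5.90-fold and 3.37-fold between the same mice. Over the 3 controls Fosb spanned 7.28-fold in cerebellum but 1.53-fold in cortex, whereas Arc spanned 1.41-fold in cerebellum and 3.89-fold in cortex. The span between control mice thus differed by gene and by region.

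At the other end, control 2, a Het mouse, was the highest in both tissues for 3 of the 9 members (Fos, Junb and Nr4a1), against 13.4% of all genes. KO 1 was the highest in both tissues for Fosl2 and Npas4, so that the highest mouse agreed for 5 of 9 members, against 29.6% of all genes. The mean deviation of the 9 members was 0.45 in the cerebellum and 0.33 in the cortex of control 2, and -1.09 and -0.80 in control 3. KO 1 had 0.23 and 0.29, and KO 2 had 0.28 and 0.30. Control 1 was near the middle, at 0.14 in cerebellum and -0.13 in cortex. The sign of the deviation was the same in the 2 tissues for 9 of 9 members in control 2 and in control 3, for 7 in KO 1 and 8 in KO 2, and for 2 in control 1, against 52.8% to 66.1% of all genes in the same mice. Because deviations are taken from a mean that includes control 3, its low values raise those of the other 4 mice. With control 3 left out, the lowest of the other 4 mice was the same in both tissues for 5 of 9 members and 34.3% of all genes, and the highest for 5 of 9 and 35.9%.

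**Figure D3:**
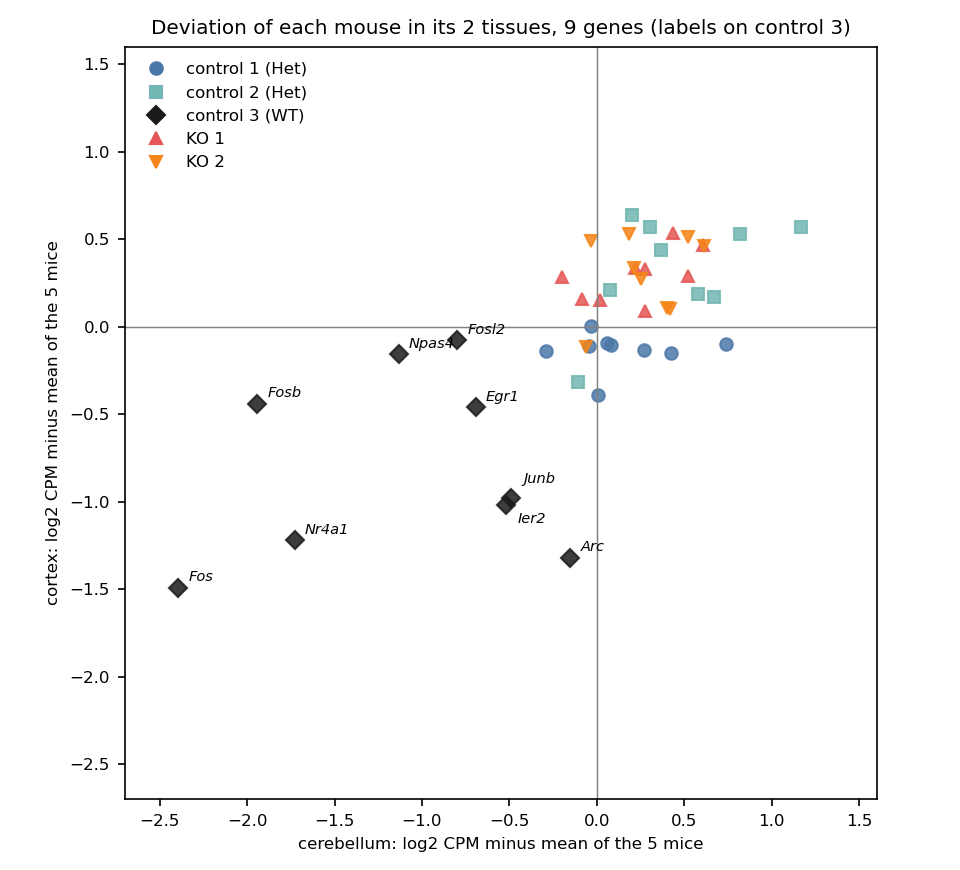
Deviation of each mouse from the mean of the 5 mice (log2 CPM) in cerebellum (x axis) and in cortex (y axis), 1 point per member and mouse for 9 members. All 9 points of control 3 lie in the lower left, from -2.39 and -1.49 for Fos to -0.80 and -0.07 for Fosl2, and 8 of the 9 points of control 2 lie in the upper right.

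Genes outside the family that shared this pattern were sought by their correlation, over the 10 libraries, with the mean deviation of the 9 members. The 10 libraries are 5 mice read in 2 tissues, so the coefficients are a description. Of 16130 candidates the most alike included Btg2 (r = 0.974), Dusp1 (0.970), 1700066M21Rik (0.950), Rfxank (0.946), Tnfrsf4 (0.930), Gm13341 (0.922) and Hsf1 (0.921). A high r does not mean a wide swing. The SD of the log2 deviations was 0.635 for Btg2 and 0.685 for Dusp1, but 0.0908 for 1700066M21Rik, 0.126 for Rfxank and 0.093 for Hsf1. Tnfrsf4 (0.508 to 1.72 CPM) and Gm13341 (1.22 to 2.23 CPM) were low in every library. Btg2, an antiproliferative cofactor, and Dusp1, a phosphatase that switches off MAP kinases, were in the list of rapidly induced feedback genes. Without the 2 libraries of control 3 the coefficients were 0.841 for Btg2 and 0.760 for Dusp1, and 0.221 to 0.674 for the other 5 named here. Dusp1 was at 59.6, 75.0 and 23.2 CPM in the cerebellum of controls 1 to 3 and at 77.0 and 61.5 CPM in that of the KO mice. In cortex it was at 50.1, 71.2 and 20.1 CPM in controls and at 60.3 and 66.7 CPM in KO mice. Control 3 was thus the lowest and separated from the other 4 mice in each tissue. For the members, each against the mean of the others, r was highest for Fos (0.988) and Nr4a1 (0.987), and lowest for Fosl2 (0.575) and Arc (0.618).

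The lists gave the same picture by role. Control 3 was the lowest mouse in both tissues for 10 of 18 other immediate early transcription factor genes (among them Atf3, Egr4, Nr4a2, Nr4a3, Klf2 and Klf4) and for 12 of 20 rapidly induced feedback genes (among them Btg2, Dusp1, Sik1, Plk2 and Plk3). It was the lowest for 0 of 14 effector genes tested in both tissues and for 2 of 26 upstream regulators, Atf1 and Creb1. The mean deviation of control 3 was -0.44 in cerebellum and -0.41 in cortex for the transcription factor list and -0.43 and -0.58 for the feedback list. It was 0.03 and 0.04 for the effector list and -0.02 and 0.04 for the upstream list. Median r with the members was 0.69 and 0.66 for the first 2 lists, -0.28 for effectors and -0.05 for upstream regulators, against 0.00 over all candidates.

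**Figure D4:**
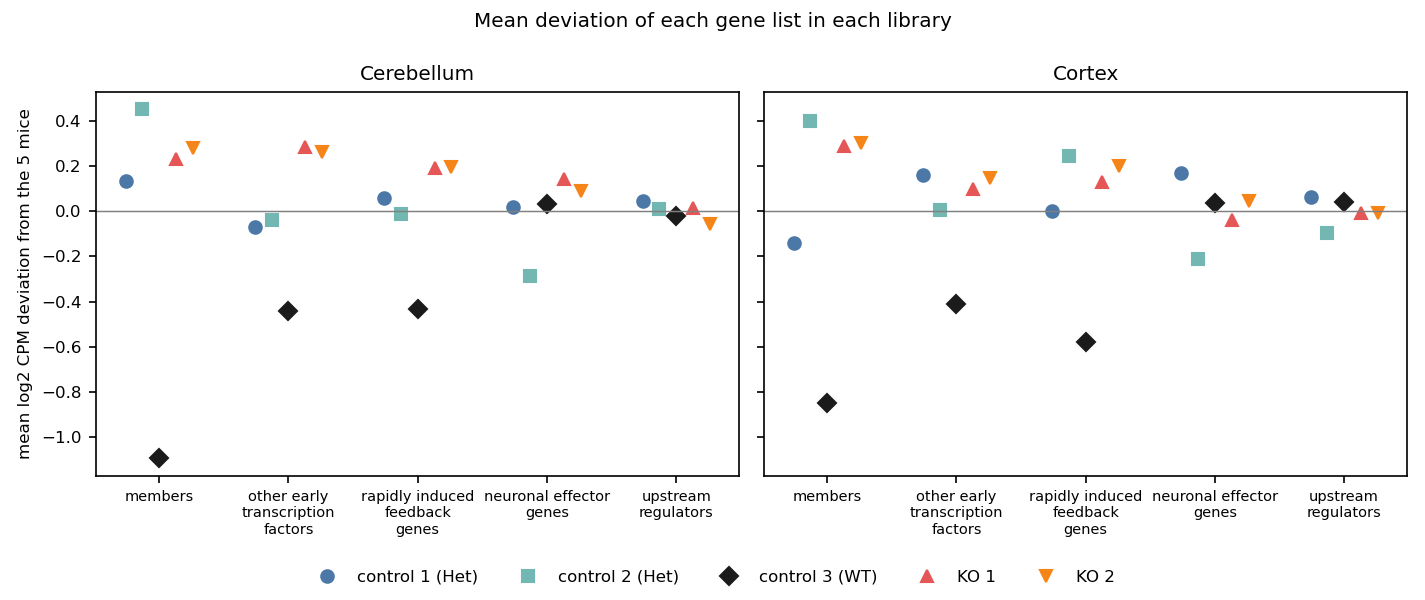
Mean deviation from the 5 mice (log2 CPM) of the members and of the 4 lists in each library, with a symbol per mouse. Control 3 lies at -1.09 for the 9 members tested in cerebellum, at -0.85 for the 10 tested in cortex and at -0.58 to -0.41 for the other transcription factor and the feedback lists, and between -0.02 and 0.04 for the effector and upstream lists.

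Cell type and handling markers were read beside these values. The 8 endothelial markers, from cells in which several IEGs are also expressed, summed to 139 CPM in the cerebellum of control 3, within the span of the other 4 mice (123 to 150 CPM). In cortex they summed to 74.7 CPM in control 3 and 90.4 CPM in control 2, below control 1 and the KO mice (150 to 161 CPM). The 8 heat shock genes, of which the constitutive Hspa8 gave most of the sum, summed to 1864 CPM in the cerebellum of control 3, where the other mice had 1769 to 2000 CPM, and to 2162 CPM in its cortex, where the others had 1940 to 2152 CPM. Their mean deviation, which weighs the genes equally, was 0.02 and -0.03 in the cerebellum and cortex of control 3, -0.28 and -0.27 in those of control 2, and 0.03 to 0.16 in the other libraries. The stress-inducible Hspa1a and Hspa1b were lowest in control 2 in both tissues, at 5.64 and 4.90 CPM in cerebellum and at 6.33 and 4.304 CPM in cortex. Striatal neuron markers (12 genes) summed to 4590 CPM in the cortex of control 2 and to 617 to 2063 CPM in the other 4 cortices. Oligodendrocyte markers summed to 8900 CPM in the same library and to 4817 to 5278 CPM in the others. Choroid plexus markers (8 genes) summed to 62.2 CPM in the cerebellum of KO 1 and to 1205 to 3435 CPM in the other 4 cerebella. The part of tissue composition and of heat shock in the levels of the members was not tested.

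Loss of Snx14 was then compared within each tissue. In cerebellum 0 of 9 tested members were called by edgeR, against 1.55% of the 19447 genes tested, with 1 member, Fosl2, at an unadjusted p under 0.05, and DESeq2 also called 0. In cortex 0 of 10 members were called by edgeR, and 0 by DESeq2, again with Fosl2 alone at an unadjusted p under 0.05. No gene of the 19202 tested passed in cortex (0%), Snx14 included (log2 fold change -1.36, SE 0.192, edgeR adjusted p 0.754), while 1139 had an unadjusted p under 0.05. All 19 fitted log2 fold changes of members were above 0, with medians of 0.19 in cerebellum and 0.33 in cortex, where the median over all genes was 0.00 in both. The 2 comparisons use the same 5 animals. The direction rested on control 3 for most members in cerebellum: without it, 7 of 9 members in cerebellum had a fitted change below 0 (Fos -0.32, Fosb -0.46, Junb -0.12, Egr1 -0.13, Npas4 -0.03, Nr4a1 -0.07 and Ier2 -0.08) and so did Junb (-0.02) and Egr2 (-0.25) in cortex.

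Fosl2 was the 1 member of 9 tested in both tissues whose genotypes did not overlap in either, where 2.39% of the 18111 genes tested in both had both KO mice above all controls in both tissues. In cerebellum the controls held 7.61, 7.21 and 4.42 CPM of it, KO 1 held 11.2 CPM and KO 2 held 10.4 CPM. In cortex the controls held 36.5, 29.2 and 34.6 CPM, KO 1 held 44.5 CPM and KO 2 held 39.1 CPM. Taken by tissue, 1 of 9 members in cerebellum and 1 of 10 in cortex had both KO mice above all controls, shares that lie below or near the 15.4% and 10.5% of all genes. The log2 fold change was 0.74 in cerebellum (SE 0.221, unadjusted p 0.00937, edgeR adjusted p 0.171) and 0.34 in cortex (SE 0.126, unadjusted p 0.0287, edgeR adjusted p 0.797), and neither was called. Without control 3 it was 0.54 (edgeR adjusted p 0.260) and 0.36 (edgeR adjusted p 0.747), so it was above 0 with the Het controls alone.

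The strongly varying members overlapped between genotypes. Fos was at 37.1 and 39.4 CPM in KO cerebellum and at 50.8 and 50.0 CPM in KO cortex, between control 1 and control 2 in each tissue. Its log2 fold change was 0.19 in cerebellum (SE 0.680, edgeR adjusted p 0.947) and 0.66 in cortex (SE 0.458, edgeR adjusted p 0.887). The cortex estimates moved with the control left out. Without control 2 they were 1.20 for Fos, 1.04 for Arc, 0.97 for Nr4a1, 0.98 for Egr2, 0.86 for Ier2, 0.73 for Junb, 0.50 for Npas4, 0.46 for Fosb and 0.25 for Fosl2, with edgeR adjusted p-values of 0.0544 to 0.347, and without control 3 they were 0.27 for Fos, 0.12 for Arc and 0.17 for Nr4a1. For Fos, the 2 KO mice differed from each other by 1.06-fold in cerebellum and 1.02-fold in cortex. The spans of the controls were 12.01-fold and 4.20-fold, but these cover 3 mice and rest on the low values of control 3. The 2 Het controls alone were at 33.1 and 61.6 CPM of Fos in cerebellum and at 32.0 and 52.1 CPM in cortex. Nr4a1 was at 33.0 and 43.4 CPM in KO cerebellum and at 131 and 144 CPM in KO cortex, also between controls 1 and 2, with log2 fold changes of 0.36 (SE 0.527) and 0.51 (SE 0.401). Arc was at 16.2 and 13.1 CPM in KO cerebellum, where KO 1 was the highest of the 5 mice, and at 248 and 278 CPM in KO cortex, below control 2. Its log2 fold changes were 0.19 (SE 0.174) and 0.49 (SE 0.449).

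Egr1 was at 46.3 and 70.2 CPM in KO cerebellum and at 313 and 277 CPM in KO cortex, with log2 fold changes of 0.12 (SE 0.284) and 0.32 (SE 0.186). In cortex KO 1 was above all controls and KO 2 below control 2. Without control 2 the cortex change of Egr1 was 0.51 with an edgeR adjusted p of 0.0244, a call, in a fit that called 98 genes in all. Npas4 was at 4.66 and 2.90 CPM in KO cerebellum and at 36.0 and 24.0 CPM in KO cortex, with log2 fold changes of 0.32 (SE 0.438) and 0.32 (SE 0.220). Here the 2 KO mice were themselves far apart. Junb was at 26.6 and 32.7 CPM and at 102.5 and 116 CPM, Fosb at 3.46 and 3.39 CPM and at 21.5 and 24.4 CPM, and Ier2 at 16.1 and 18.2 CPM and at 12.03 and 15.6 CPM, in KO cerebellum and KO cortex respectively. Egr2 was at 10.6 and 11.3 CPM in KO cortex, between control 1 and control 2. Log2 fold changes of these 4 genes ranged from 0.02 to 0.12 in cerebellum (3 tested) and from 0.15 to 0.47 in cortex, with adjusted p-values of 0.886 or more in each tissue.

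**Figure D5:**
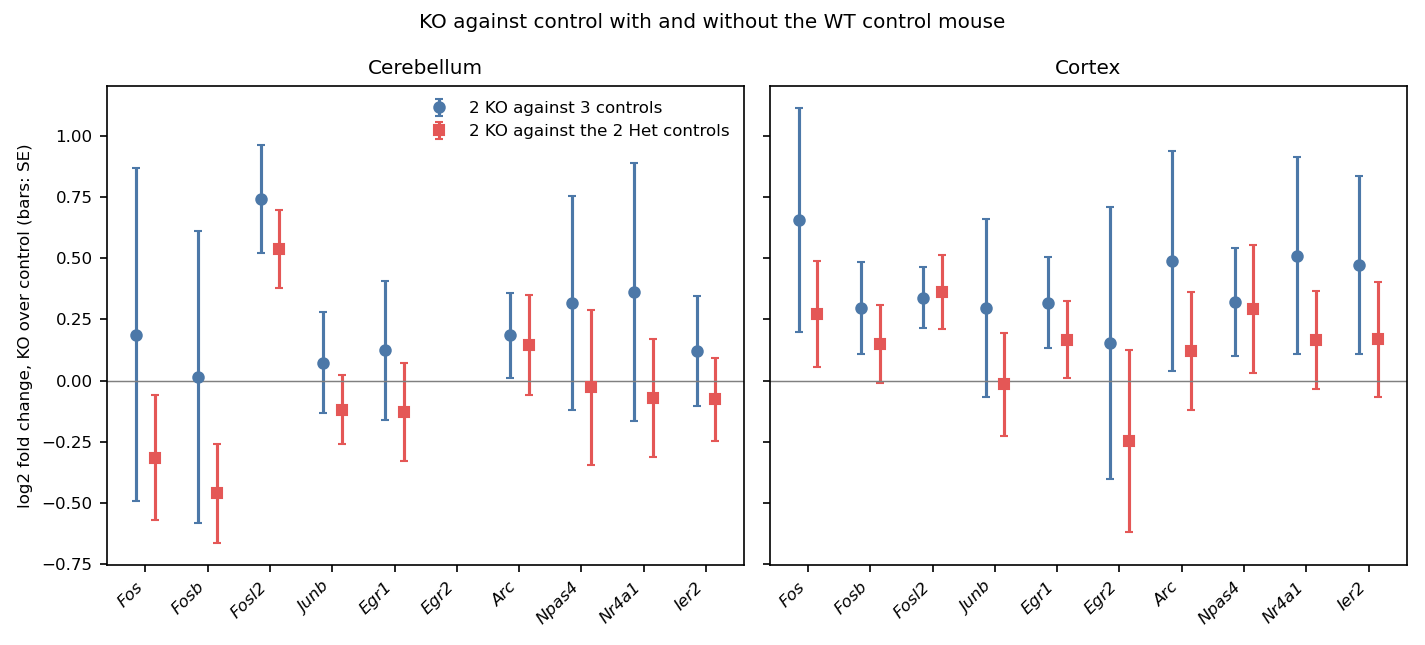
Log2 fold change of each member, KO over control, with its SE, in cerebellum and cortex, for all 3 controls (circles) and for the 2 Het controls alone (squares). With all controls every estimate is above 0, and without control 3 the estimates of 7 members in cerebellum and 2 in cortex fall below 0, while Fosl2 stays at 0.54 and 0.36.

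A further test compared the KO effect in cerebellum with that in cortex. None of the 10 members was called (edgeR, 0 at an unadjusted p under 0.05, and 0 with DESeq2), against 0.102% of 20614 genes. With the mouse as a block 128 genes passed instead of 21, and again 0 members. The largest difference among the 9 members tested in both tissues was that of Fos, -0.45 (SE 1.01, edgeR adjusted p 0.970), cerebellum minus cortex, and that of Fosl2 was 0.42 (SE 0.269, edgeR adjusted p 0.760). These SEs come from a fit that did not pair the tissues of a mouse, so they include differences between mice that both tissues share. With the mouse as a block the difference was -0.25 for Fos (SE 0.293, edgeR adjusted p 0.844) and 0.44 for Fosl2 (SE 0.228, edgeR adjusted p 0.547). Each fit rests on 2 KO mice against 3 controls.

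In the 4 lists 4 genes were called in KO cerebellum, where 1.55% of the 19447 genes tested were called. Arl4d, a small GTPase gene of the feedback list, was at 11.6, 12.6 and 10.8 CPM in controls and at 26.1 and 22.4 CPM in KO mice (log2 fold change 1.05, SE 0.121, edgeR adjusted p 0.00463). Inhba, which encodes an activin subunit, rose by 1.01 (SE 0.198, edgeR adjusted p 0.0425). Camk2a, a kinase gene of the postsynapse, fell by 0.91 (SE 0.115, edgeR adjusted p 0.00635), and the prohormone convertase gene Pcsk1 fell by 0.78 (SE 0.160, edgeR adjusted p 0.0491). The call of Inhba was lost without each of the 5 libraries in turn (adjusted p 0.0617 to 0.234). That of Pcsk1 was lost without control 1 (0.204), control 3 (0.170), KO 1 (0.159) or KO 2 (0.213), and that of Camk2a without KO 1 (0.0533). In 1 fit of all 10 libraries Arl4d (0.253), Camk2a (0.176) and Inhba (0.0628) were not called. In the list of other immediate early transcription factors 0 of 18 were called, and the smallest p-values were those of Jund (0.35, edgeR adjusted p 0.0631), Jun (0.54, edgeR adjusted p 0.0903) and Per1 (0.57, edgeR adjusted p 0.112). The medians were 0.52 for that list, 0.24 for feedback genes, 0.03 for effectors and -0.03 for upstream regulators, against 0.00 over all genes.

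In KO cortex 0 genes of the 4 lists were called. The smallest unadjusted p-values were those of Per1 (log2 fold change 0.48, edgeR adjusted p 0.768), Klf4 (1.23, 0.797) and Maff (0.77, 0.864) among transcription factors, Rgs2 (-0.64, 0.829), Errfi1 (0.33, 0.829) and Spry4 (0.32, 0.867) among feedback genes, Scg2 (-0.36, 0.754), Ptgs2 (0.51, 0.867) and Inhba (-0.41, 0.882) among effectors, and Camk4 (-0.32, 0.754), Rps6ka5 (-0.46, 0.829) and Nab1 (0.21, 0.876) among upstream regulators. Cell type lists moved with genotype in the same libraries. All 10 Purkinje cell markers were called lower in KO cerebellum, where 1.55% of all genes were called in either direction. Their sum was 4616 to 4755 CPM against 9144 to 10880 CPM in controls. In the same tissue 2 of 8 microglia and 3 of 8 astrocyte markers were called higher and 0 lower. The fitted change was below 0 for 1 of the microglia and 2 of the astrocyte markers. Among these was Slc1a3, at 1103 and 1014 CPM in KO mice against 1287 to 1486 CPM in controls. In cortex all 12 striatal markers had a fitted change below 0 (median -1.86, against 0.00 over all genes), with 0 of 12 called. Their sums were 617 to 1168 CPM in KO mice against 1874 to 4590 CPM in controls. Their part in the values of the members, including those of Fosl2, was not tested.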

How the data were processed

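Genes were counted by the authors, who trimmed paired-end reads, aligned them to GRCm38 with STAR and counted pairs over exons with featureCounts (Subread 2.0.1). According to the file headers, the deposited counts are raw fragment counts per gene, without strand and with pairs that overlap several genes credited to each. Libraries were prepared by 1 company per the labels. Entries that were no mouse gene (26345 of 81881, 0.160% to 0.926% of counts) were left out. Genes were named by GENCODE M21 identifiers, of which 55450 of 55536 matched in coordinates. Tests used edgeR 4.0.16 in R 4.3.3 (quasi-likelihood, TMM, filterByExpr with a count minimum of 10, Benjamini-Hochberg), fitted on the whole table within the libraries compared. They were tested on simulated data. CPM used TMM factors over all libraries, and log2 CPM a prior count of 2. Alternatives were DESeq2 1.42.0, its size factors in edgeR, no filter, 1 fit of all libraries, a replicate block and each library left out. Replicates are separate mice. The numbers pair the tissues of a mouse, since the labels give the animal. Deviations from the group means correlated across genes at 0.164 to 0.370 between the tissues of a control mouse. Between tissues of different control mice they correlated at -0.255 to 0.126. In KO mice the value was 0.326 within a mouse and -0.326 between mice, and with 2 mice the second is fixed by the first. All 10 members and Snx14 are reported. From 4 lists up to 5 called genes per comparison were named by smallest p, otherwise up to 3 per list, and the 8 genes most alike in pattern, of which 1 is not reported here. Egr2 was left out of the pattern because it failed the filter in cerebellum. The members and lists were chosen with earlier results of these data known.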

Additional observations from a re-analysis of the deposited data

How the results depend on the processing

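Of 51 alternative counts of members called or agreeing, 48 were within 1.5 times the value reported. For both KO comparisons and for the difference between the tissues the value reported was 0. There only a count of 0 was within this bound. Without a filter on low counts 1 member was called in cerebellum (Fosl2, 0.73, adjusted p 0.00306) and 2 in cortex (Fos, 0.65, and Nr4a1, 0.51), in fits that called 842 and 380 genes against 302 and 0. The number called in cortex ranged from 0 to 1 when each library was left out, the 1 being Egr1 without control 2. DESeq2 called 432 genes in cerebellum and 49 in cortex, and 221 for the difference between the tissues. Over all genes, the cerebellum count fell to 133 without control 1, 179 without control 3, 180 without KO 1 and 181 with the replicate block, and the cortex count was 98 without control 2, 7 without KO 2 and 3 with that block. The difference between the tissues passed in 21 genes, in 599 without a filter, in 3 to 117 with 1 library left out and in 0 without both tissues of control 3. Replicate numbers of control and KO mice belong to different animals and do not pair them, with correlations of deviations between -0.114 and 0.114. With 2 KO mice each of these values occurs with both signs. With the replicate block the cerebellum changes were -0.26 for Fos, -0.46 for Fosb, -0.12 for Junb, -0.15 for Egr1, -0.03 for Npas4, -0.05 for Nr4a1 and -0.07 for Ier2, and that of Egr2 in cortex was -0.13. Control 3 has no KO mouse of its number, so that fit leaves it without weight. With the mouse as a replicate block, Fos was 0.17 between the regions, and the block changed no other call of a member besides Ier2. Leaving out each library gave ranges that spanned 0. In cerebellum these were -0.32 to 0.98 for Fos, -0.46 to 0.36 for Fosb, -0.12 to 0.26 for Junb, -0.22 to 0.40 for Egr1, -0.05 to 0.76 for Npas4, -0.07 to 0.98 for Nr4a1 and -0.08 to 0.36 for Ier2. In cortex they were -0.02 to 0.73 for Junb, -0.25 to 0.98 for Egr2 and -0.01 to 0.59 for Npas4, and between the regions -0.56 to 0.75 for Fos. For the difference between the tissues they were -1.01 to 0.35 for Fos, -0.74 to 0.08 for Fosb, -0.66 to 0.08 for Junb, -0.51 to 0.09 for Egr1, -3.83 to 1.42 for Egr2, -0.86 to 0.05 for Arc, -0.36 to 0.46 for Npas4 and -0.61 to 0.49 for Nr4a1. With both tissues of control 3 left out, an alternative chosen after seeing the data, that difference was 0.04 for Arc and -0.31 for Npas4, and with DESeq2 size factors it was -0.01 for Npas4. The cause was not tested. Counts per library were lowest in cerebellum for Egr2 (0 to 6), Fosb (13 to 103) and Npas4 (26 to 99), and 2 KO mice limit each genotype comparison.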

Other observations

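A list of 8 genes that respond to glucocorticoids was read in the same libraries. These genes (Fkbp5, Sgk1, Tsc22d3, Zbtb16, Cdkn1a, Sult1a1, Map3k6 and Pdk4) summed to 292, 243 and 325 CPM in the cerebellum of controls 1 to 3 and to 462 and 391 CPM in that of KO 1 and KO 2. In cortex the sums were 312, 294 and 318 CPM in controls and 450 and 378 CPM in KO mice. The sums of both KO mice were above those of all controls in both tissues, and control 2 had the lowest sum in both. Sgk1 and Tsc22d3 were the largest terms of each sum. Zbtb16 was highest in control 3 in both tissues. It was there at 34.7 CPM in cerebellum and 70.7 CPM in cortex, against 20.2 to 27.1 and 49.7 to 58.8 CPM in KO mice. Gene by gene, both KO mice were above all controls for 4 of 8 genes in cerebellum and 3 of 8 in cortex. The shares over all genes were 15.4% and 10.5%. In cerebellum 1 of the 8 genes was called higher and in cortex 0, against 1.55% and 0% of all genes in either direction. The median log2 fold changes were 0.63 and 0.35. How these genes relate to the members was not tested. A list of 8 clock genes (Per2, Per3, Dbp, Nr1d1, Nr1d2, Arntl, Ciart and Tef) was summed as well. The sum was 915 CPM in the cerebellum of control 3 and 963 to 974 CPM in the other 4 mice. It was 1016 CPM in the cortex of control 3, where the others had 1010 to 1068 CPM. Tef, Nr1d1 and Nr1d2 gave most of these sums, which need not show single genes. Dbp was at 150 CPM in the cortex of control 2 and at 82.9 to 96.1 CPM in the other 4 cortices. The mean deviation of the clock list in control 3 was -0.07 in cerebellum and -0.03 in cortex.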
